A study of Mus musculus with 12 samples.

Results

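Ace, Cpm, Mme, Enpep, Anpep, Dpp4 and Ece1 encode peptidases anchored in the cell membrane with the catalytic site outside the cell or in the secretory pathway. The 7 genes are described here out of 19937 genes with a probe set of their own on the array. Ace and Cpm were selected on their measured values, because both were lower in the line with full-length Mkl1 (FL) than in both lines with altered Mkl1. The other 5 genes were added as related membrane peptidases, with results of these data already known. Each of the 7 genes had a single probe set on the array that names it alone, so no choice between probe sets was needed.

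These enzymes trim peptide hormones at the cell surface. Ace (angiotensin-converting enzyme) makes angiotensin II and destroys bradykinin, and Enpep (aminopeptidase A) takes the N-terminal residue off angiotensin II. Cpm (carboxypeptidase M) is held by a glycolipid anchor and removes C-terminal arginine or lysine, for example from kinins. Ece1 (endothelin-converting enzyme) releases active endothelin from its precursor. Mme (neprilysin) degrades enkephalins, tachykinins and natriuretic peptides, Anpep (aminopeptidase N, CD13) removes neutral N-terminal residues, and Dpp4 (CD26) cuts dipeptides from incretins and from the chemokine Cxcl12. Dpp4 is a serine peptidase and the others are zinc metallopeptidases. In normal tissue Ace is known for its expression on endothelium, and Mme is a known marker of mammary myoepithelial cells.

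Expression was measured with Affymetrix Mouse Gene 1.0 ST arrays in 4 stable lines made from 4T1 cells, which come from a mammary epithelial carcinoma of a BALB/cfC3H mouse. The lines are ΔSAP and mutB1, named for Mkl1 constructs with an alteration, FL, read here as full-length Mkl1, and a control line. Cells of every line spent 48 h in medium with 0.03% serum, and each line was grown in 3 cultures with an array from each. Each construct is represented by 1 stable line, so a construct effect and a difference between lines cannot be told apart, and p-values rest on the spread between cultures of a line. The sources used here do not give the vectors and promoters of the constructs or what the control line carries.

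Values are log2 expression after RMA, the authors' normalization, and carry no detection call. The median of an array lay between 6.35 and 6.45, and a line mean under 6.35 is called low, since such a signal may be background. Arrays of a line correlated at 0.995 to 0.997 across probe sets. Mkl1 itself (symbol Mrtfa) averaged 11.92 ± 0.04 in ΔSAP, 11.29 ± 0.11 in mutB1, 12.08 ± 0.06 in FL and 9.27 ± 0.01 in control (SD, n = 3). Its signal was lower in mutB1 than in FL (difference -0.79 ± 0.06, limma adjusted p = 2.79e-06), while ΔSAP and FL did not pass as different (-0.16 ± 0.06, adjusted p = 0.0776). Whether its probes cover the altered parts of the constructs was not examined, so this signal may not measure RNA amount alike in each line. Krt8 and Krt18, keratins of simple epithelium, averaged over 12 in every line, which are labelled as epithelial carcinoma. Other epithelial markers stood lower in mutB1 than in control. Krt7 averaged 8.97 in mutB1 against 11.35 in control, Cdh1 8.08 against 9.65 and Epcam 6.41 against 8.44. Krt19 averaged 6.18 in mutB1, a low mean, against 7.81 in control.

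A difference between lines was said to pass where limma's adjusted p was at most 0.01 and the mean over the 12 arrays at least 4, a level that all 7 genes met. Such a gene is called higher, lower, risen or fallen. The filters of the study's design add a fold of at least 2. Differences are given on the log2 scale with their standard error (SE).

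**Figure D1:**
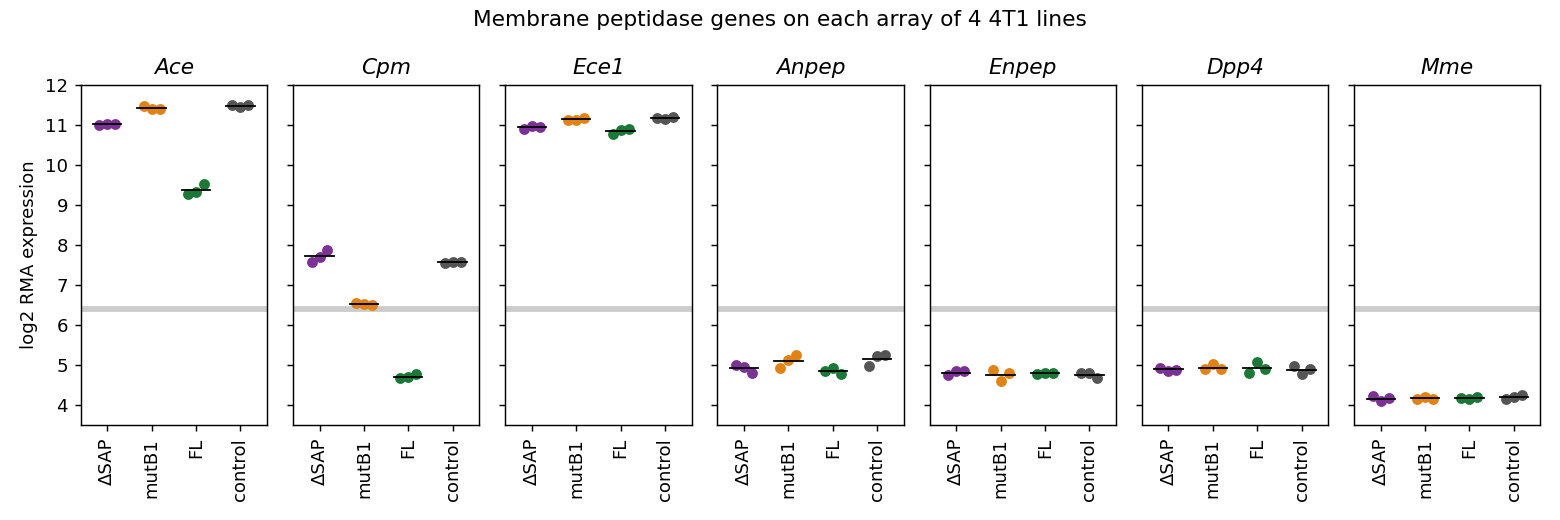
Log2 RMA expression (vertical axis) of 7 membrane peptidase genes on each of 12 arrays, by line (ΔSAP, mutB1, FL, control); points are arrays, black bars the means of 3, and the grey band spans the array medians from 6.35 to 6.45. The FL points of Ace, between 9.28 and 9.52, and of Cpm, between 4.67 and 4.77, lie apart from those of the other 3 lines, and Anpep, Enpep, Dpp4 and Mme lie below the grey band on every array.

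The genes fell into those with signal well above the array median and those near the low end of the scale. Ace and Ece1 stood above 9 on every array, and Cpm spanned the range on both sides of the median. Anpep, Enpep, Dpp4 and Mme had low means in all 4 lines, between 4.16 for Mme in ΔSAP and 5.15 for Anpep in control. For those 4 genes a missing difference is therefore a statement about signal that may be background.

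Ace was lowest in FL. Its log2 value was 11.00, 11.02 and 11.03 in ΔSAP, 11.47, 11.41 and 11.40 in mutB1, 9.28, 9.32 and 9.52 in FL, and 11.50, 11.45 and 11.51 in control. All 3 FL arrays lay below all 9 others, the ΔSAP arrays lay between, and the mutB1 and control arrays overlapped. The line means were 11.02 ± 0.01 in ΔSAP, 11.43 ± 0.04 in mutB1, 9.37 ± 0.13 in FL and 11.49 ± 0.03 in control (SD, n = 3).

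Cpm was also lowest in FL, but the other lines stood in another order. Its log2 value was 7.58, 7.71 and 7.87 in ΔSAP, 6.54, 6.52 and 6.51 in mutB1, 4.67, 4.69 and 4.77 in FL, and 7.54, 7.58 and 7.58 in control. Here the mutB1 arrays lay between FL and the rest, and the ΔSAP and control arrays overlapped. The line means were 7.72 ± 0.15 in ΔSAP, 6.52 ± 0.02 in mutB1, 4.71 ± 0.05 in FL and 7.57 ± 0.02 in control (SD, n = 3). The FL mean was low, so a difference of Cpm against FL is as measured and may understate the true one.

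The promoters of Ace and Cpm are shown because these genes share the low FL level. They are the 250 bases before the first annotated start, from RefSeq on build GRCm38.p6, plus strand, 5′ to 3′, with GC boxes (GGGCGG on either strand) in capitals. Ace lies at chr11:105967698-105967947 and Cpm at chr10:117629250-117629499.
Ace: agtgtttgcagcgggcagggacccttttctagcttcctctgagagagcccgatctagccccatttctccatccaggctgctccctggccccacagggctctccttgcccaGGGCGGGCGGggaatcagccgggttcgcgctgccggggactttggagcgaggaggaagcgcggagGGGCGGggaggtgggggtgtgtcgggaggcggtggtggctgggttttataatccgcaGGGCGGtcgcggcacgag
Cpm: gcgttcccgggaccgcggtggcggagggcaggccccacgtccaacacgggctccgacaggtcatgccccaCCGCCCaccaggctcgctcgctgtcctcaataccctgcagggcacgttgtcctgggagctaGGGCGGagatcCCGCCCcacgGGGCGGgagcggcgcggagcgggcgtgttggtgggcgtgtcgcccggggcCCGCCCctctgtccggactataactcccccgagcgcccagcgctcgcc
The Ace stretch holds 4 GC boxes, of which a pair overlap, and the Cpm stretch holds 5. That motif was chosen after the sequences were seen, and 35.7% of the 32851 promoter windows of 300 bases in the table (250 before and 50 after a start) hold it. Of the 13 windows of the 7 genes, 9 hold it, among them windows of Mme, Anpep and Ece1, and the other window of Ace does not. Windows of a gene can overlap, and some windows of Ece1 hold the same GC boxes.

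The windows were also searched for the CArG box, the site of serum response factor, through which Mkl1 is known to act, and for the TEAD motif GGAATG and the AP-1 motif TGANTCA, on both strands and without counting overlaps between motifs. All 7 genes had at least 1 window. The CArG box was in 0 of the 13 windows, and 1.63% of all windows hold it. The TEAD motif was in 2 windows, 1 of Mme and the window of Dpp4, against 14.7% of all windows. The AP-1 motif was in 2 windows of Mme, against 7.81%, but these windows overlap and hold the same site. No such letters in a window says nothing of sites elsewhere.

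The contrasts that chose Ace and Cpm were both altered-Mkl1 lines against FL, and their sizes are given as a description with no test. Ace was 2.05 ± 0.06 above FL in mutB1 and 1.64 ± 0.06 above FL in ΔSAP. For Cpm the difference from FL was 1.81 ± 0.06 in mutB1 and 3.01 ± 0.06 in ΔSAP. Both genes exceeded a fold of 2 in both contrasts, from which nothing is read, since these contrasts chose them; of all probe sets, 0.627% met the study's filters as higher in mutB1 than in FL and 0.288% as higher in ΔSAP than in FL.

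Set against the control line, which the choice did not use, the FL line held 4.33-fold less Ace and 7.24-fold less Cpm RNA signal. Ace fell by 2.11 on the log2 scale (SE 0.06, limma adjusted p = 3.15e-09), to 23.1% of the control signal, and Cpm fell by 2.86 (SE 0.06, adjusted p = 8.42e-10), to 13.8%. Among all 34760 probe sets the change of Cpm was the 4th lowest in this comparison and that of Ace the 21st lowest. The comparison with control still uses the FL arrays on which both genes were chosen. In RNA from whole cultures, fewer cells with a transcript and less of it per cell cannot be told apart.

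The third gene lower in FL than in control was Ece1, which was not chosen for its values. Its log2 value was 10.90, 10.97 and 10.95 in ΔSAP, 11.13, 11.13 and 11.16 in mutB1, 10.78, 10.87 and 10.89 in FL, and 11.19, 11.15 and 11.21 in control. The FL and ΔSAP arrays lay below all arrays of mutB1 and control, with line means of 10.94 ± 0.04 in ΔSAP, 11.14 ± 0.02 in mutB1, 10.84 ± 0.06 in FL and 11.18 ± 0.03 in control (SD, n = 3). Ece1 fell by 0.34 in FL against control (SE 0.04, limma adjusted p = 8.26e-05), a 1.26-fold difference that stays under the study's fold filter.

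In FL against control, 3 of the 7 genes were lower by the adjusted p, where 10.3% of all probe sets were lower and 9.52% higher. By the study's filters, 2 of the 7 were lower, where 0.621% of all probe sets were. Those 2 are Ace and Cpm, chosen for their low values on the same FL arrays, so nothing is read from these counts. Of the 5 genes not chosen for their values, 1, Ece1, was lower and 0 were higher in limma, with 2 lower at an unadjusted p under 0.05, and their median was -0.03. The median difference of all 7 genes was -0.30, against -0.01 over all probe sets. It includes Ace and Cpm and was partly set by their choice, so nothing is read from it. Anpep showed 4.84, 4.93 and 4.77 in FL against 4.99, 5.22 and 5.25 in control, and its difference of -0.30 ± 0.10 did not pass (limma adjusted p = 0.042). The arrays of Anpep in FL and control did not overlap, by a gap of 0.06, with both means low.

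**Figure D2:**
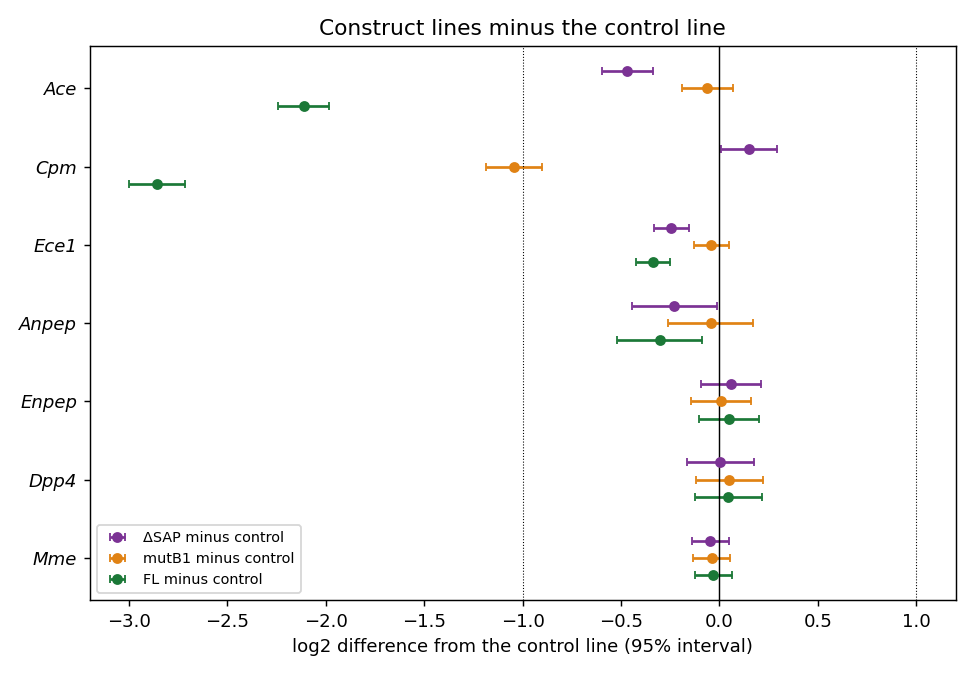
Log2 difference from the control line (horizontal axis) of 7 genes in the ΔSAP, mutB1 and FL lines, with 95% intervals from limma; dotted lines mark a fold of 2. FL lies at -2.11 for Ace and -2.86 for Cpm, mutB1 at -1.04 for Cpm, and the intervals of Enpep, Dpp4 and Mme all hold 0.

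Against control, mutB1 differed in Cpm. In mutB1, Cpm was 2.06-fold lower than in control, with a difference of -1.04 ± 0.06 (limma adjusted p = 1.23e-06), and it was the only gene of the 7 to pass; 0.489% of all probe sets were lower by the study's filters, 6.86% were lower by the adjusted p and 5.78% higher. Ace in mutB1 differed from control by -0.06, with a 95% interval of -0.19 to 0.07 (adjusted p = 0.573), so the data allow a difference within those bounds. Ece1 in mutB1 differed by -0.04, with an interval of -0.13 to 0.05 (adjusted p = 0.57). The choice of Cpm used the same mutB1 arrays, and of the 5 genes not chosen for their values 0 passed. The median of the 7 differences was -0.04, against 0.00 over all probe sets.

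In ΔSAP the genes that passed against control were Ace and Ece1. Ace fell by 0.47 (SE 0.06, limma adjusted p = 0.000208), to 72.3% of the control signal, and Ece1 fell by 0.24 (SE 0.04, adjusted p = 0.00117), to 84.5%. The Ece1 call was lost when only the arrays of ΔSAP and control were fitted (adjusted p = 0.0125), which leaves 1 of the 7 genes. Cpm was 0.15 ± 0.06 above control, which did not pass (adjusted p = 0.129), with a 95% interval of 0.01 to 0.29. Thus 2 of the 7 were lower, where 7.79% of all probe sets were lower and 6.9% higher. Of the 5 genes not chosen for their values, 1, Ece1, was lower and 0 were higher. The choice of Ace and Cpm used the same ΔSAP arrays, so nothing is read from the count of 7. The median of the 7 was -0.05, against -0.03 over all probe sets.

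The direct comparison of ΔSAP with mutB1 tests whether those 2 lines differ. Cpm was 2.29-fold higher in ΔSAP (1.19 ± 0.06, limma adjusted p = 4.28e-07). Ace went the other way, with a difference of -0.41 ± 0.06 (adjusted p = 0.000524), as did Ece1, with -0.20 ± 0.04 (adjusted p = 0.00373). The Ece1 call was lost when any of 5 of the 6 arrays compared was left out (adjusted p up to 0.0174), and after median centring (adjusted p = 0.0199). Of the 7 genes, 1 was higher and 2 were lower, where 7.01% of all probe sets were higher and 7.85% lower, and 0.883% were higher by the study's filters. Cpm was the gene of the 7 that met those filters. Ace and Cpm were chosen for being above FL in both lines, which fixes no order between those lines. The choice still used the same ΔSAP and mutB1 arrays, so nothing is read from the count of 7. Of the 5 genes not chosen for their values, 1, Ece1, was lower and 0 were higher.

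The remaining 5 genes can be tested in the contrasts against FL. In mutB1, Ece1 was higher than in FL by 0.30 ± 0.04 (limma adjusted p = 0.000247), 1 of the 5, where 8.86% of all probe sets were higher and 8.76% lower. Anpep in mutB1 was 0.26 ± 0.10 above FL and did not pass (adjusted p = 0.081). In ΔSAP, 0 of the 5 genes passed against FL in limma and 1, Ece1, had an unadjusted p under 0.05, where 5.68% of all probe sets were higher and 5.7% lower by the adjusted p. Ece1 in ΔSAP differed from FL by 0.09, with a 95% interval of 0.01 to 0.18. The medians of the 5 genes were 0.01 in both contrasts, against 0.00 over all probe sets for mutB1 and -0.03 for ΔSAP.

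Enpep, Dpp4 and Mme passed in none of the 6 comparisons in limma, every 95% interval held 0, and their arrays overlapped between all lines. Enpep ranged from 4.60 to 4.88 over the 12 arrays, Dpp4 from 4.78 to 5.09 and Mme from 4.11 to 4.26. Their line means spanned 0.06, 0.05 and 0.05, while the SD within a line reached 0.15 for Enpep, 0.14 for Dpp4 and 0.05 for Mme. Mme, the myoepithelial marker, stayed at the low end of the scale in all 4 lines.

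The order of the levels differed between the genes with signal. For Ace it was FL, ΔSAP, mutB1, control from low to high, and mutB1 and control did not differ beyond their spread. For Cpm it was FL, mutB1, control, ΔSAP, and control and ΔSAP did not differ beyond theirs. Ece1 followed the order of Ace, with FL and ΔSAP not passing as different and mutB1 and control likewise.

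Genes with the most similar profile were named by Pearson correlation over the 12 arrays among 900 other genes whose line means spanned at least 1. The arrays form 4 lines of 3, so the correlations mainly follow the 4 line means and are given as a description. For Ace they were Mex3b (r = 0.992), Piezo2 (0.989), Psd3 (0.986), Mylip (0.984) and Trp53inp2 (0.982). Mex3b averaged 9.90 in ΔSAP, 10.08 in mutB1, 9.00 in FL and 10.02 in control. For Cpm they were Cyp39a1 (r = 0.990), Camsap3 (0.987), Mboat2 (0.979), Marcks (0.979) and Arrdc3 (0.978). Cyp39a1 averaged 8.33 in ΔSAP, 7.59 in mutB1, 6.34 in FL and 8.05 in control. Ace and Cpm correlated with each other at 0.861, which ranked Cpm 79th for Ace and Ace 30th for Cpm among the 900 genes. Both were chosen as low in FL, so a high correlation between them was partly set by the choice. Ece1 correlated at 0.861 with Ace and 0.570 with Cpm.

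**Figure D3:**
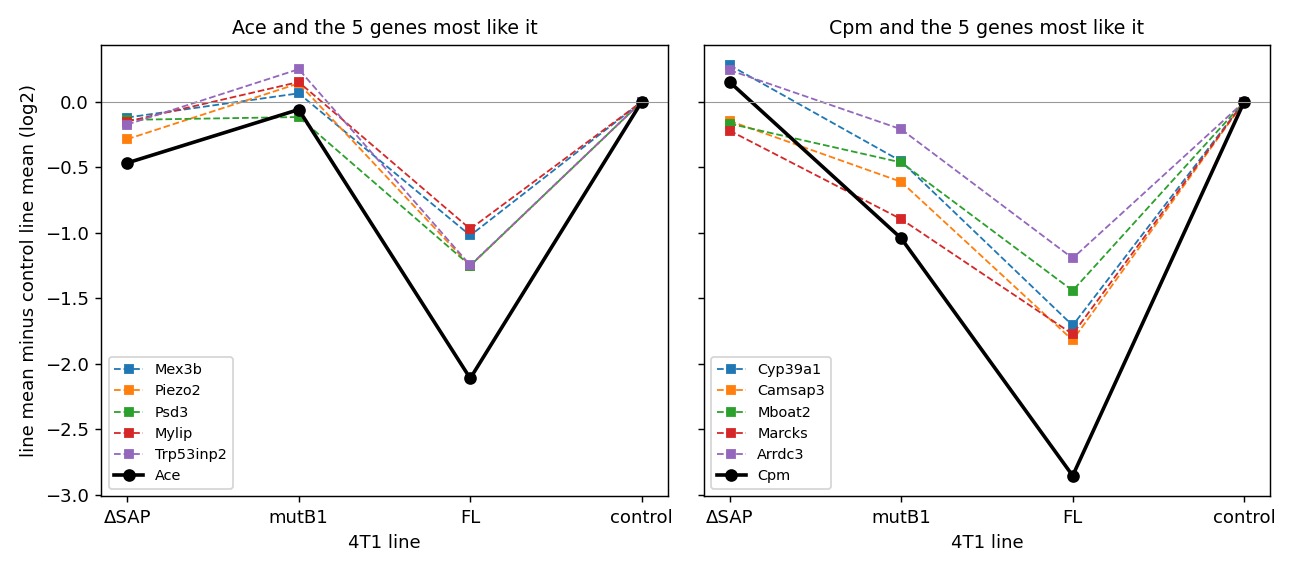
Line mean minus the control line mean on the log2 scale (vertical axis) in 4 lines, for Ace (left) and Cpm (right) as black circles and for the 5 genes with the highest correlation to each as coloured squares. Ace dips in FL to -2.11, with mutB1 close to control, whereas Cpm dips in FL to -2.86 and lies at -1.04 in mutB1; the similar genes dip in FL by less than Ace or Cpm.

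The genes of the peptide systems that these enzymes act on were counted with the same threshold, and in each count the share over all probe sets is the one given above for that comparison: in FL against control, 9.52% higher and 10.3% lower. In ΔSAP against control it was 6.9% higher and 7.79% lower, and in mutB1 against control 5.78% higher and 6.86% lower. In mutB1 against FL it was 8.86% higher and 8.76% lower, and in ΔSAP against FL 5.68% higher and 5.7% lower. No list was tested against these shares, and nothing particular to a list is read from its counts. Of 13 measured renin-angiotensin genes, 2 were higher and 1 lower in FL than in control, 1 higher and 2 lower in mutB1 than in FL, and 1 passed, as lower, in ΔSAP against FL. In ΔSAP 3 were higher and 1 lower than in control; in mutB1 0 passed against control in limma, with 3 higher and 3 lower at an unadjusted p under 0.05. Their median was -0.0011 in FL against control, beside -0.01 over all probe sets, and 5 of the 13 had low means in every line, including the angiotensin receptor gene Agtr1a. Agtrap, whose product binds the angiotensin receptor, was lower in FL than in control (limma difference -0.44 ± 0.05, adjusted p = 3.94e-05) and higher in mutB1 than in FL by 0.29 ± 0.05 (adjusted p = 0.000881). It was also lower in ΔSAP than in control (limma difference -0.39 ± 0.05, adjusted p = 0.000137). Prep, the cytosolic prolyl endopeptidase, was 0.31 ± 0.03 higher in FL than in control (limma adjusted p = 4.46e-05) and 0.30 ± 0.03 higher in ΔSAP than in control (adjusted p = 8.74e-05).

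Among 8 kinin system genes, 1 passed in FL against control, as higher, and 2 in mutB1 against FL, both lower; 2 were higher in ΔSAP than in control and 1 was lower in mutB1 than in control. The median in FL against control was 0.19 and 5 of the 8 were low in every line. The gene that was higher in FL was Xpnpep2, a membrane aminopeptidase P that also cuts bradykinin. It stood at 6.55 ± 0.04 in ΔSAP, 5.87 ± 0.12 in mutB1, 6.93 ± 0.06 in FL and 6.02 ± 0.02 in control (SD, n = 3), with low means in mutB1 and control. FL exceeded control by 0.90 ± 0.06 (limma adjusted p = 1.33e-06), and mutB1 was below FL by 2.08-fold (-1.06 ± 0.06, adjusted p = 5.59e-07). Both differences are measured against a low mean and may be understated.

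Of 6 endothelin system genes, 1, Ece2, passed in FL against control, as higher by 0.52 ± 0.06 (limma adjusted p = 5.43e-05), and the median was 0.04. Ece2, the close relative of Ece1, was also higher than control in mutB1 (0.31 ± 0.06, adjusted p = 0.00307) and in ΔSAP (0.46 ± 0.06, adjusted p = 0.000204), while Ece1 was not higher in any of those comparisons. Edn1, the gene of the endothelin precursor, had low means in all lines, from 5.49 in FL to 5.21 in control. Edn1 and Agtr1a were named after their values were seen.

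Related peptidases outside the 7 genes showed calls in both directions. Of 26 other zinc metallopeptidases, all of the same families except Cpq, 2 were higher and 5 lower in FL than in control. The shares of all probe sets were 9.52% and 10.3%, and the list median was -0.02 in that comparison. Against FL, 3 were higher and 1 lower in mutB1, and 1 was higher and 1 lower in ΔSAP. In ΔSAP 2 were higher and 5 lower than in control, and in mutB1 2 were higher and 4 lower. Cpq, a secreted carboxypeptidase, was lower than control in all 3 construct lines, by -0.45 ± 0.04 in ΔSAP, -0.75 ± 0.04 in mutB1 and -0.62 ± 0.04 in FL (limma adjusted p between 4.11e-07 and 1.8e-05). Erap1, the endoplasmic reticulum aminopeptidase that trims antigenic peptides, was higher than control in all 3, by 0.33 ± 0.06 in ΔSAP, 0.82 ± 0.06 in mutB1 and 0.58 ± 0.06 in FL (adjusted p between 3.66e-06 and 0.00197). Of 23 other dipeptidyl peptidases and ectopeptidases, Xpnpep2 among them, 4 were higher and 2 lower in FL than in control, with a median of -0.0036.

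**Figure D4:**
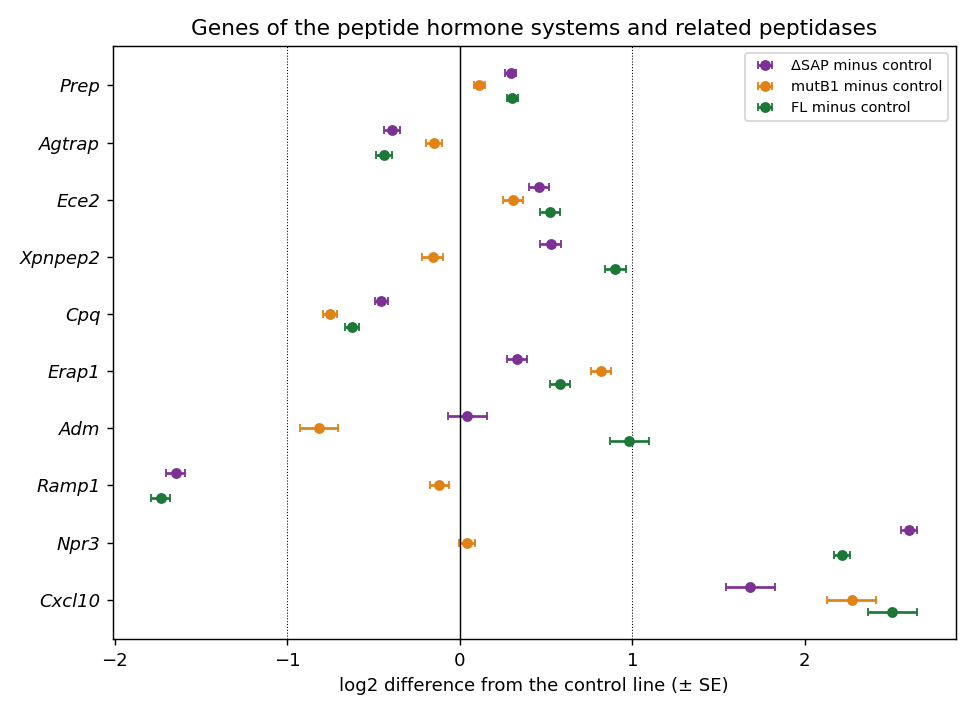
Log2 difference from the control line (horizontal axis, ± SE) of 10 genes of the peptide systems and related peptidases in the ΔSAP, mutB1 and FL lines; dotted lines mark a fold of 2. Npr3 lies at 2.60 in ΔSAP and 2.22 in FL but 0.04 in mutB1, and Ramp1 at -1.65 in ΔSAP and -1.73 in FL but -0.12 in mutB1.

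Of 32 genes for peptide substrates and their receptors, 6 were higher and 4 lower in FL than in control (9.52% and 10.3% of all probe sets), and the median was -0.0025. In ΔSAP 5 were higher and 1 lower than in control, and in mutB1 3 were higher and 3 lower. In mutB1, 3 were higher and 5 lower than in FL, and in ΔSAP 3 were higher and 4 lower than in FL. In ΔSAP against mutB1, 7 were higher and 2 lower, where 7.01% of all probe sets were higher and 7.85% lower. Npr3, the clearance receptor for natriuretic peptides, which are cut by neprilysin, averaged 10.69 ± 0.01 in ΔSAP, 8.13 ± 0.08 in mutB1, 10.30 ± 0.06 in FL and 8.08 ± 0.04 in control (SD, n = 3). It was 4.65-fold higher in FL than in control (limma adjusted p = 7.12e-10), and 4.51-fold lower in mutB1 than in FL (adjusted p = 1.13e-09). Ramp1, a subunit of the receptor for calcitonin gene-related peptide, averaged 7.71 ± 0.10 in ΔSAP, 9.24 ± 0.0028 in mutB1, 7.62 ± 0.03 in FL and 9.36 ± 0.08 in control, a 3.32-fold lower level in FL than in control (adjusted p = 7.03e-09).

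Ligand genes of that list changed as well. Adm, the gene of the vasodilator adrenomedullin, averaged 7.02 ± 0.09 in ΔSAP, 6.16 ± 0.25 in mutB1, 7.96 ± 0.13 in FL and 6.97 ± 0.06 in control (SD, n = 3). It was higher in FL than in control by 0.98 ± 0.11 (limma adjusted p = 7.21e-05) and lower in mutB1 than in FL by 3.48-fold (adjusted p = 1.15e-06), which may be understated because the mutB1 mean was low. Cxcl10, a chemokine that Dpp4 can truncate, was higher than control in all 3 construct lines, by 1.68 ± 0.14 in ΔSAP, 2.27 ± 0.14 in mutB1 and 2.51 ± 0.14 in FL (adjusted p between 4.58e-07 and 1.27e-05).

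Markers of other cell types were read beside these results, since Ace is known from endothelium and Mme, Anpep and Dpp4 from myoepithelial, stromal or immune cells. All 8 endothelial markers, Pecam1, Cdh5 and Kdr among them, had low means in every line, and their mean level per array was 5.19 to 5.32 in ΔSAP, 5.24 to 5.32 in mutB1, 5.25 to 5.33 in FL and 5.23 to 5.37 in control. In FL against control 0 of the 8 passed in limma, where 9.52% of all probe sets were higher and 10.3% lower. At an unadjusted p under 0.05 in limma, 1 was higher and 0 were lower. In ΔSAP against control, where Ace was also lower, 1 of the 8 was lower, Tek, by -0.21 ± 0.05 (limma adjusted p = 0.00952). Its mean was low in both lines, and 7.79% of all probe sets were lower in that comparison. The part of Tek in the Ace result was not tested. Of 6 myoepithelial markers 4 were low in every line (5.97 to 6.03 in ΔSAP, 5.81 to 5.98 in mutB1, 6.01 to 6.10 in FL, 5.89 to 5.94 in control), as were 5 of 7 leukocyte and 4 of 5 adipocyte markers, with array means from 5.42 to 5.60 and from 5.10 to 5.26 over the 4 lines.

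Epithelial markers and some fibroblast markers moved between lines. The 6 epithelial markers had array means of 11.23 to 11.27 in ΔSAP, 9.22 to 9.24 in mutB1, 10.63 to 10.67 in FL and 10.54 to 10.59 in control. In mutB1 against FL, 4 of them were lower and 1 higher, where 8.76% of all probe sets were lower and 8.86% higher. Those 4, Krt19, Krt7, Cdh1 and Epcam, were lower by over 2-fold, and the Krt19 mean in mutB1 was low. In ΔSAP against FL, all 6 epithelial markers were higher, where 5.68% of all probe sets were higher and 5.7% lower. The 8 fibroblast markers, of which 2 were low in every line, had array means of 6.35 to 6.53 in ΔSAP, 7.17 to 7.22 in mutB1, 6.45 to 6.56 in FL and 6.74 to 6.85 in control. Among them Pdgfrb stood at 5.92 ± 0.17 in ΔSAP, 10.29 ± 0.06 in mutB1, 6.33 ± 0.02 in FL and 6.85 ± 0.19 in control (SD, n = 3). In mutB1 against control, where Cpm was lower, 5 of the 6 epithelial markers were lower, against 6.86% of all probe sets. Pdgfrb was higher by 3.45 ± 0.10 in that comparison (limma adjusted p = 3.9e-09). It was the only 1 of the 8 fibroblast markers to pass there, where 5.78% of all probe sets were higher. The median difference of the fibroblast list was -0.04, so its higher mean level in mutB1 is not a rise of the list.

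Marker calls were also made in the other comparisons in which Ace or Cpm was lower than in control. In FL against control, Krt19 (0.61 ± 0.07) and Cdh1 (0.65 ± 0.04) of the epithelial list were higher, and Krt8 (-0.27 ± 0.03) and Krt18 (-0.33 ± 0.04) lower. Of the fibroblast list Pdgfra (-1.38 ± 0.06, limma adjusted p = 7.96e-08) and Pdgfrb (-0.51 ± 0.10, adjusted p = 0.00267) were lower, the first past the study's fold filter. The myoepithelial markers Krt14 (0.58 ± 0.10) and Acta2 (0.43 ± 0.06) and the leukocyte marker Cd68 (0.67 ± 0.10) were higher. In ΔSAP against control, where Ace and Ece1 were lower, Pdgfra (-1.03 ± 0.06) and Pdgfrb (-0.92 ± 0.10) were lower as well. Epcam (1.70 ± 0.08), Krt19 (1.08 ± 0.07), Cdh1 (1.03 ± 0.04), Krt7 (0.50 ± 0.04) and Acta2 (0.79 ± 0.06) were higher in that comparison. The part of these markers in the levels of Ace, Cpm and Ece1 was not tested.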

How the data were processed

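RNA of 12 cultures, 3 from each of 4 stable 4T1 lines, was measured on Affymetrix Mouse Gene 1.0 ST arrays. The deposited values are log2 expression values, made by the authors with RMA from the affy package per the labels and the series design text; R 2.10.0 and affy are named per the submitters' processing notes. The sources used here name neither the probe set definition nor a genome build.

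Of 34760 probe sets, GEO's platform annotation gave 21640 a single symbol, 1321 several and 11799 none; symbols were updated by Entrez ID in a RefSeq table of GRCm38.p6, which matched 21553. A gene's brightest probe set stood for it. One fit of 4 line means over all 12 arrays was made with limma 3.58.1 in R 4.3.3 (lmFit, eBayes), with p-values adjusted over the whole table by Benjamini and Hochberg's method, after a test on simulated data. Related genes were named where they passed the study's filters in any comparison, at most 4 per list by size, or otherwise the 2 with the largest F statistic among those with an adjusted p of at most 0.01; all 7 genes and Mkl1 are named. For arrays the precision is limited by their number, 3 per line. The genes, lists, motifs and tests were chosen with earlier results of these data known. No arrays held identical values, and none was left out.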

Additional observations from a re-analysis of the deposited data

How the results depend on the processing

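The counts of genes that passed in the 6 comparisons were recomputed under 21 alternatives. In 125 of 126 such recomputations the count stayed within 1.5 times of that reported, a bound that takes in a fall from 3 to 2. The exception was ΔSAP against control, where 1 gene passed in place of 2 when the fit used only the arrays of those 2 lines, because Ece1 was no longer called (limma adjusted p = 0.0125); that fit has fewer samples. Leaving out each array in turn gave counts of 1 to 1 in mutB1 against FL, 0 to 0 in ΔSAP against FL, 3 to 3 in FL against control, 1 to 1 in mutB1 against control, 2 to 2 in ΔSAP against control and 2 to 3 in ΔSAP against mutB1. The difference of Ace between FL and control ranged from -2.19 to -2.07 and that of Cpm from -2.88 to -2.84 in those fits. Without FL replicate 3, Ace was 2.13 above FL in mutB1 and 1.72 in ΔSAP. In ΔSAP against mutB1 the count also fell from 3 to 2 after median centring. Ece1 in that comparison was also lost with only the 2 lines fitted (limma adjusted p = 0.0229). Anpep in FL against control passed at a threshold of 0.05. Same-numbered arrays showed no shared deviation, with correlations of -0.20 to 0.17, against -0.16 to 0.27 for different numbers. With 3 arrays per line this cannot exclude that the numbers pair the samples. With a replicate block the counts were 1 in mutB1 against FL and 3 in FL against control, as without it. Averaging probe sets was not run, since each of the 7 genes has 1. Low signal limits what can be said of Anpep, Enpep, Dpp4 and Mme.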
